A study of Mus musculus with 2 samples.

Results

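The 8 genes described here belong to nitric oxide and arginine metabolism: Nos2, Gch1, Slc7a2, Arg1, Arg2, Ass1, Asl and Odc1. Activated macrophages produce nitric oxide from arginine. They were chosen by symbol for their roles, with earlier results of these data known, and all 8 were found among the 16218 named genes of the table. The RNA came from mouse bone marrow-derived macrophages of the C57BL/6J strain, grown for 5 days with 10% L929 supernatant as the source of growth factor and given lipopolysaccharide (LPS) at 10 ng/ml for 3 h. The WT library was from cells with Lyz2-Cre alone. The TKO library was from cells with the deletions mir-106a-363-/- and mir-106b-25-/- and the conditional allele mir-17-92flox/flox, also with Lyz2-Cre, so that 3 microRNA clusters were targeted. Lyz2-Cre acts in myeloid cells, so any other cell in the culture would keep mir-17-92 while lacking the other clusters. The age of the mice, and how many gave each culture, were not stated, and no unstimulated library was analysed here, so induction by LPS was not measured.

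There was 1 library per genotype, and the counts summed to 10764519 (WT) and 10836855 (TKO). A difference between them has no replicate check, no p-value was computed, and "higher" and "lower" describe these 2 libraries. Fold changes are ratios of CPM (the count scaled to a common library total) followed by the 95% exact Clopper-Pearson interval, which covers counting error only. Mir17hg, the primary transcript of mir-17-92, had 16 counts in each library. A count over the whole host gene does not check whether the floxed part was removed.

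Inducible nitric oxide synthase, the product of Nos2, turns arginine into nitric oxide and citrulline and needs the cofactor tetrahydrobiopterin, whose synthesis starts with the product of Gch1. Slc7a2 encodes a transporter that brings arginine into the cell. Ass1 and Asl encode argininosuccinate synthase and lyase, which rebuild arginine from citrulline. Arginase 1 and arginase 2 instead split arginine into urea and ornithine, and ornithine decarboxylase, from Odc1, takes ornithine into polyamine synthesis. In mouse macrophages Nos2 is a classical LPS-induced gene, and Arg1 a classical gene of the response to interleukin-4.

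Because the targeted clusters act through short seeds (microRNA bases 2 to 8), the 3' UTRs of the 8 genes were searched for the matching 7 bases. The clusters carry 4 seed families. One mature microRNA of each is shown from RefSeq (GRCm38.p6), 5′ to 3′, with the seed in capitals.
mmu-miR-17-5p: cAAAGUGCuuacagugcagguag
mmu-miR-18a-5p: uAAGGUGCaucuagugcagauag
mmu-miR-19b-3p: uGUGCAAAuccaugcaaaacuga
mmu-miR-92a-3p: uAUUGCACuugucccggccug
The seed of miR-17-5p is shared by miR-20a-5p, miR-20b-5p, miR-93-5p, miR-106a-5p and miR-106b-5p, that of miR-18a-5p by miR-18b-5p, that of miR-19b-3p by miR-19a-3p, and that of miR-92a-3p by miR-25-3p and miR-363-3p.

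Of the 8 genes, 3 had a match in their longest annotated 3' UTR (GENCODE release M21, build mm10): Nos2, Slc7a2 and Arg2. Among 11143 measured genes with an annotated 3' UTR, 34.2% had a match to at least 1 of the 4 families. The 4 matches are printed as in the transcript, with the 7 matching bases in capitals.
Nos2, miR-17 family, chr11:78960026-78960052, plus strand: aacctcctgactgaaGCACTTTgggtg
Slc7a2, miR-17 family, chr8:40920773-40920799, plus strand: aatacaactttagcaGCACTTTaacag
Slc7a2, miR-18 family, chr8:40920389-40920415, plus strand: tcagaggaaatactcGCACCTTacctt
Arg2, miR-18 family, chr12:79156033-79156059, plus strand: aaatactgtactctgGCACCTTtcaca
Both matches of Slc7a2 were followed by an A and so extended to 8 bases, and those of Nos2 and Arg2 did not. A match of 8 bases to a family was found in 13.8% of measured genes. Slc7a2 has by far the longest of the 8 3' UTRs, at 5774 bases, against 255 to 1903 bases in the others and a median of 1220 bases over measured genes. Ass1, Asl, Arg1, Odc1 and Gch1 had no match in these windows. A match is a run of letters, not a shown target, and its conservation was not examined.

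**Figure D1:**
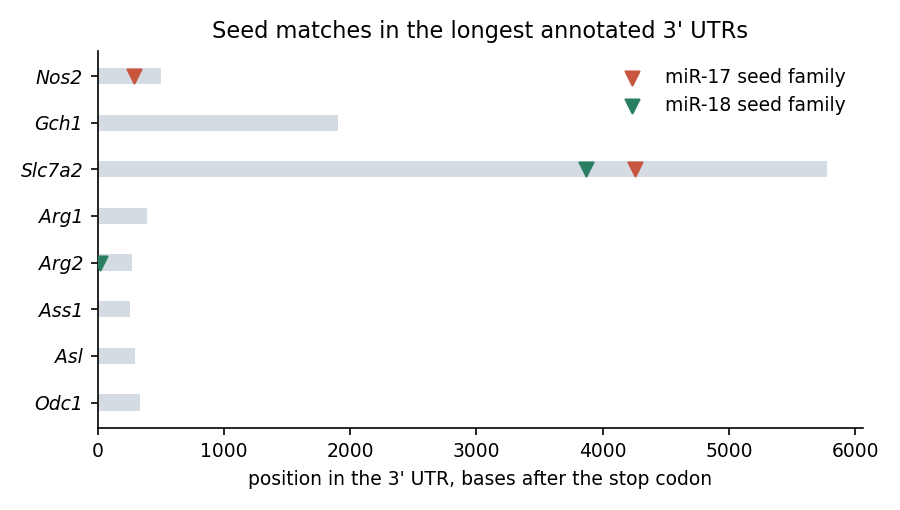
Horizontal bars give the length of the longest annotated 3' UTR of each gene in bases after the stop codon, and triangles mark 7-base matches to the miR-17 (red) and miR-18 (green) seed families. Slc7a2 holds 2 matches near positions 3870 and 4254, Nos2 1 at 289 and Arg2 1 at 17.

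The level of Nos2 was high and, like that of Gch1, nearly equal between the libraries. The TKO library had more Ass1 and less Odc1, and there was almost no Arg1 in either. Per length, in FPKM as deposited by the authors, Nos2 had the highest level of the 8 genes in both libraries, at 138.8 in WT and 130.9 in TKO. It ranked 553rd in WT and 581st in TKO among all genes. In WT the order then ran Slc7a2 (83.56 FPKM), Odc1 (42.19), Ass1 (40.34), Gch1 (37.65), Asl (23.13), Arg2 (11.91) and Arg1 (0.63). In TKO Ass1 came next after Nos2 (80.45 FPKM), followed by Slc7a2 (67.19), Gch1 (39.11), Asl (27.43), Odc1 (24.50), Arg2 (12.50) and Arg1 (0.13). The order changed for Ass1, which passed Slc7a2 and Odc1, and for Odc1, which moved from place 3 to place 6. With 1 library per genotype the spread of a level over samples is unknown, so neighbours in this order such as Odc1, Ass1 and Gch1 in WT cannot be said to differ.

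**Figure D2:**
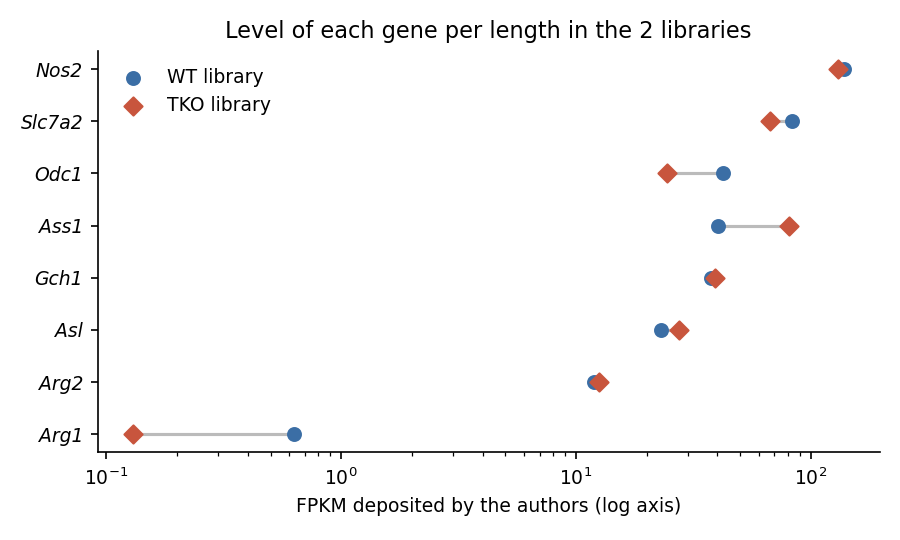
Dots give the FPKM of each gene in the WT library (blue circles) and the TKO library (red diamonds) on a log axis, joined by a grey line, with no error bars because each genotype had 1 library. Ass1 moves from 40.34 to 80.45 and Odc1 from 42.19 to 24.50, while the points of Nos2, Gch1 and Arg2 nearly coincide.

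Nos2 had 6268 counts in WT and 5953 in TKO, or 582.3 and 549.3 CPM. The difference was 1.06-fold (1.02 to 1.10) in the direction of less in TKO. The interval excluded equality with scaling by the library total, and included it with TMM scaling (1.03-fold lower, 0.989 to 1.06) and with DESeq2 size factors (1.03-fold lower, 0.998 to 1.07). Nos2 lies on chromosome 11 at 78920787 to 78960254 (plus strand), and no other annotated gene overlaps it.

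Gch1, which encodes GTP cyclohydrolase 1, had 1124 and 1175 counts in WT and TKO. Its ratio of TKO to WT CPM was 1.04 (0.956 to 1.13), an interval that included equality. Both the synthase gene and the gene for its cofactor thus had intervals within 1.13-fold of equality, with scaling by the library total. Gch1 is on chromosome 14 (47153895 to 47189413, minus strand), where 2 processed pseudogenes are annotated within its span.

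Slc7a2 had the most counts of the 8 genes, 7027 in WT and 5687 in TKO. It was 1.24-fold lower in TKO (1.201 to 1.29), and the interval excluded equality under all 3 scalings. Its log2 ratio, taken as log2 of (TKO CPM + 0.5) over (WT CPM + 0.5) here and below, was −0.31, against a median of −0.04 over the 11662 genes that averaged at least 1 CPM, called measured genes. Slc7a2 is also the gene with both 8-base seed matches printed above, and whether they bear on its level was not tested. The gene spans 40862396 to 40922308 on chromosome 8 (plus strand) and overlaps the antisense non-coding gene Gm26584. The sources used here do not give the strand setting of the counting, so reads of the pair could not be told apart. A gene-level count also does not separate the isoforms of this transporter.

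Ass1 showed the only difference of at least 1.5-fold upward among the 8 genes. It had 704 counts in WT and 1413 in TKO (65.4 and 130.4 CPM), 1.99-fold higher (1.82 to 2.19). Its log2 ratio of 0.99 was the 120th highest of the 11662 measured genes. Asl, the next enzyme of citrulline recycling, had 393 and 469 counts and was 1.19-fold higher in TKO (1.03 to 1.36). Both genes of the citrulline-arginine loop were thus higher beyond counting error, by unequal amounts. The FPKM of Ass1 was 1.74 times that of Asl in WT and 2.93 times in TKO. Ass1 is on chromosome 2 (31470207 to 31520672, plus strand) and Asl on chromosome 5 (130011258 to 130029247, minus strand), and neither overlaps another annotated gene.

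Odc1 showed the only difference of at least 1.5-fold downward among the measured members. It had 1159 counts in WT and 677 in TKO (107.7 and 62.47 CPM), 1.72-fold lower (1.57 to 1.90). Its log2 ratio of −0.78 was the 388th lowest of the measured genes. Its estimated counts were fractional, so some of its reads were shared with other genes. Gm15645, which the deposited table places in the same ornithine decarboxylase orthology group and which was picked for that reason, had 34 and 54 counts. The summed count of both was 1193 in WT and 731 in TKO, still 1.64-fold lower (1.497 to 1.80). Odc1 is on chromosome 12 (17544794 to 17551505, plus strand), and a small nucleolar RNA gene lies within it.

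The arginase genes were the least abundant. Arg2, for the mitochondrial arginase, had 180 counts in WT and 190 in TKO, a ratio of 1.05 (0.851 to 1.29). Its chromosome 12 span (79130777 to 79156301, plus strand) meets Vti1b on the other strand, which had 568 and 505 counts, so reads at the overlap cannot be assigned with certainty. Arg1, for the cytosolic arginase, had 10 counts in WT and 2 in TKO, a ratio of 0.199 (0.0212 to 0.932), and was too scarce to be counted as measured. Its TKO count was under the floor of 3 counts used for detection. Almost all arginase message was therefore Arg2: the summed counts of both genes were 190 and 192. Nos2 had 11.7 times the FPKM of Arg2 in WT and 10.5 times in TKO. Arg1 lies on chromosome 10 (24915221 to 24927484, minus strand).

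Of the 7 measured members, 1 was called higher (Ass1) and 1 lower (Odc1), where a call needs at least 1.5-fold and an interval excluding equality. Over all measured genes 2.83% were called higher and 5.26% lower, 8.09% in all. At 2-fold with scaling by the library total, 0 members were called, against 1.02% of measured genes higher, 1.68% lower and 2.70% in all. With TMM scaling Ass1 was 2.06-fold higher (1.88 to 2.26) and with DESeq2 size factors 2.04-fold (1.86 to 2.24), past 2-fold in both. For 5 of the 7 the interval excluded equality (Ass1 and Asl higher, Nos2, Slc7a2 and Odc1 lower), against 14.1% of all measured genes higher, 20.2% lower and 34.3% in all, and 42.0% (18.2% higher, 23.8% lower) of the 7935 genes that averaged at least 10 CPM, a level that all 7 reached. Of those 7935 genes, 2.12% were called higher at 1.5-fold and 3.11% lower, 5.23% in all. The median log2 ratio of the 7 was 0.05, with 4 above 0 and 3 below. The 8 genes thus did not share a direction. In the authors' deposited table, whose test compares these 2 libraries and is not named in the sources read, the adjusted value was 1.93e-51 for Ass1, 1.57e-28 for Odc1, 1.01e-32 for Slc7a2, 0.00944 for Nos2, 0.0650 for Asl, 0.0995 for Arg1, 0.660 for Gch1 and 0.817 for Arg2.

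**Figure D3:**
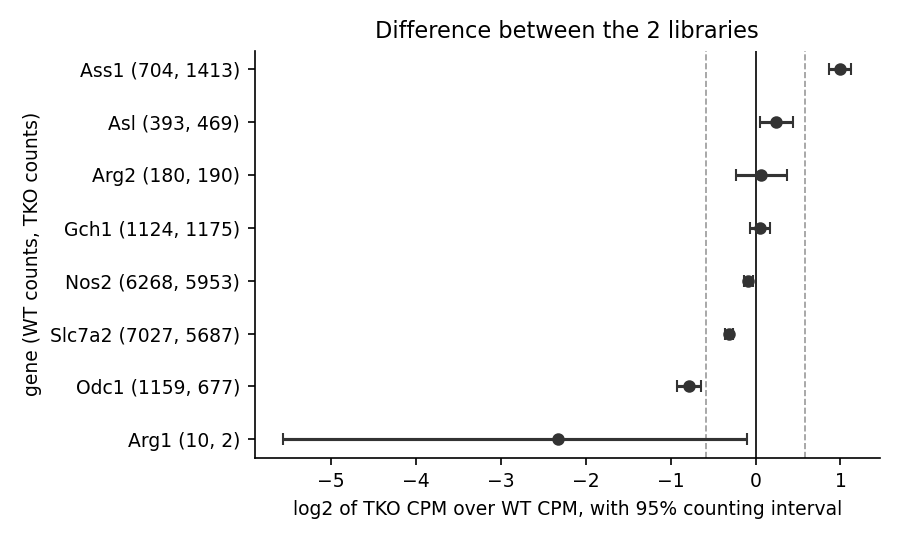
Points give the log2 of TKO CPM over WT CPM for each gene, with 95% counting intervals as bars, the counts of both libraries beside the name, a solid line at equality and dashed lines at 1.5-fold. The interval of Ass1 lies wholly to the right of the dashed lines, that of Odc1 wholly to the left, and the interval of Arg1 reaches from near equality far to the left.

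**Figure D4:**
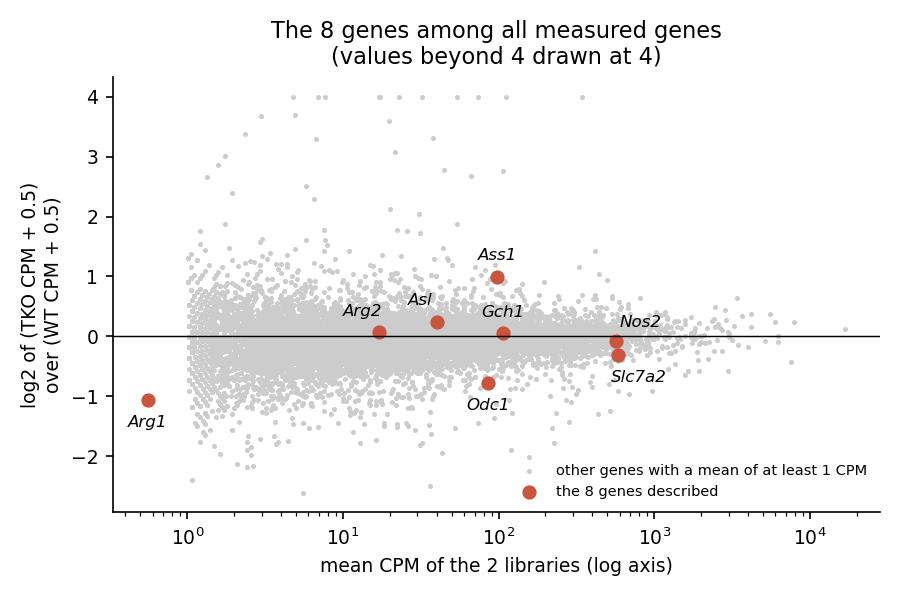
Each grey point is a measured gene, placed by its mean CPM (log axis) and its log2 ratio (values beyond 4 drawn at 4), and red points are the 8 genes described. Ass1 (0.99) and Odc1 (−0.78) stand at the edges of the cloud at their abundance, Nos2 and Slc7a2 lie within it at high abundance, and Arg1 lies below 1 CPM.

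The promoters of the genes with a call are shown because their messages differed in opposite directions (RefSeq, GRCm38.p6, 250 bases before to 50 after the annotated start, plus strand). Capitals mark matches on either strand to the E-box CACGTG, bound by factors of the Myc family among others, and to the GC box GGGCGG, bound by Sp-family factors.
Ass1, chr2:31470020-31470319: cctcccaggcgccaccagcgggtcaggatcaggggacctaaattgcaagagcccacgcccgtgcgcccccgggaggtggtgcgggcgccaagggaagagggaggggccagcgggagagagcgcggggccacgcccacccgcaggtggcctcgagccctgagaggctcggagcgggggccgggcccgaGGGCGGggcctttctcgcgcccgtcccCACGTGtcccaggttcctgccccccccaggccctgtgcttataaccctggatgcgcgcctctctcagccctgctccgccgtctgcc
Odc1, chr12:17544623-17544922: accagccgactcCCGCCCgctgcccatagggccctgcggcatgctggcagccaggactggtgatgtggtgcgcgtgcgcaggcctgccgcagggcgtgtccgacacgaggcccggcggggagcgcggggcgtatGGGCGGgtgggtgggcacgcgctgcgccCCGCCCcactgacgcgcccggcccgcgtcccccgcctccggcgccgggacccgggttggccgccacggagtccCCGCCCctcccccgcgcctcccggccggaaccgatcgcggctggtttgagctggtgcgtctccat
The Ass1 window held 1 E-box and 1 GC box, and the Odc1 window 4 GC boxes and no E-box. The same window of Gch1, which was not called, held 2 GC boxes and no E-box. Bases outside these windows, introns among them, were not searched. Of 32851 mouse promoters of this length, 7.15% held the E-box and 35.7% the GC box. These motifs do not overlap each other, and a match is a description of the letters alone.

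Among the proteins that act on nitric oxide synthases, 12 of 16 genes were measured, with 0 called higher and 1 lower. The gene called lower was Spsb1, whose product marks inducible nitric oxide synthase for degradation. Its counts were 359 (WT) and 123 (TKO), a 2.94-fold lower level (2.39 to 3.64). The related Spsb2, chosen after its values were seen, had 51 and 77 counts and missed the call at just under 1.5-fold higher (interval 1.04 to 2.18). Calm2, for calmodulin, and the chaperone gene Hsp90ab1, the most abundant of the list, lay within 1.03-fold of equality. The other synthases were scarcely detected, Nos1 with 6 and 1 counts and Nos3 with 3 and 1. The list's median was −0.03, close to that of all measured genes, and turned to 0.02 with TMM scaling.

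Tetrahydrobiopterin genes were even between the libraries. Of 9 genes 7 were measured, and 0 were called in either direction. Pts and Spr, which complete the synthesis that Gch1 begins, had 90 and 91 counts and 157 and 162 counts. Qdpr, which recycles the cofactor, had 393 and 382 counts, and Akr1b3, the most abundant gene of the list, 1494 and 1495. Gchfr, which encodes the feedback regulator of GTP cyclohydrolase 1, had 2 counts in each library. The median was −0.01, and 0.04 with TMM scaling.

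Among 10 measured genes of arginine and cationic amino acid transport, 0 were called higher or lower, with a median of −0.19. Slc7a1, which encodes the constitutive arginine transporter, had 778 and 695 counts, a ratio of TKO to WT CPM of 0.887 (0.800 to 0.984), a smaller difference than that of Slc7a2. Slc7a7 and Slc3a2 encode the light and heavy chains of an arginine exporter. Slc7a7 had 380 and 376 counts, and Slc3a2 was 1.07-fold higher (1.02 to 1.11). Per length, Slc7a2 at 83.56 and 67.19 FPKM stood above Slc7a1 at 10.1 and 8.81.

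Within the urea cycle and citrulline recycling list, Ass1 was the 1 of 10 measured genes called higher and 0 were called lower, with a median of −0.14. Got2, Mdh2 and Mdh1 were the most abundant genes of the list. Got2 encodes an enzyme that makes aspartate, which argininosuccinate synthase consumes, and Mdh1 and Mdh2 encode malate dehydrogenases. Got2 was 1.11-fold lower (1.05 to 1.18), Mdh2 1.14-fold lower (1.04 to 1.251) and Mdh1 1.198-fold lower (1.11 to 1.29), so they did not share the direction of Ass1. Otc and Cps1, genes of citrulline synthesis in the liver, were not analysed here. In the ornithine, proline and glutamate branch 0 of 9 measured genes were called. Oat, which turns ornithine toward proline and glutamate, had 743 and 736 counts, and Glul, for glutamine synthetase, had 1359 and 915 counts, a log2 ratio of −0.58 that just missed the call.

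The polyamine list held 20 measured genes, of which 3 were called lower and 1 higher, and its median was −0.18. Beside Odc1, the genes called lower were Srm, for spermidine synthase (155 and 88 counts, 1.77-fold, 1.36 to 2.33), and Mtap, which salvages the methylthioadenosine that polyamine synthesis releases (239 and 154 counts, 1.56-fold, 1.27 to 1.93). With TMM scaling the log2 ratio of Mtap was −0.58 and missed the call. The gene called higher was Slc18b1, for a vesicular polyamine transporter, at 47 and 95 counts (2.01-fold, 1.40 to 2.91). Further genes of the list were lower beyond counting error without reaching 1.5-fold. Sms, for spermine synthase, was 1.249-fold lower (1.09 to 1.43), and Eif5a, whose protein carries a residue made from spermidine, 1.23-fold lower (1.18 to 1.29).

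The regulators of ornithine decarboxylase were lower by less than Odc1 itself. Oaz1 and Oaz2 encode antizymes, which send the enzyme to the proteasome, and Azin1 encodes an inhibitor of antizyme. Oaz1 was 1.36-fold lower (1.28 to 1.46), Oaz2 1.202-fold lower (1.05 to 1.38) and Azin1 1.203-fold lower (1.12 to 1.30). Amd1, for the decarboxylase that supplies aminopropyl groups, had 488 and 506 counts. Sat1, the catabolic spermidine and spermine acetyltransferase gene, was 1.21-fold higher (1.15 to 1.27). Of 10 measured regulators of Odc1 and polyamine genes, Fos was called lower and 0 were called higher, with a median of −0.36. This list mixes inducers with Myc antagonists, so its median is not that of inducers alone. The antagonists are Mxd1 (log2 ratio −0.56) and Mxi1 (−0.49), named here after their values were seen. Myc, a known activator of Odc1 that was chosen here after its values were seen, had 91 and 64 counts (1.43-fold lower, 1.03 to 2.00).

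**Figure D5:**
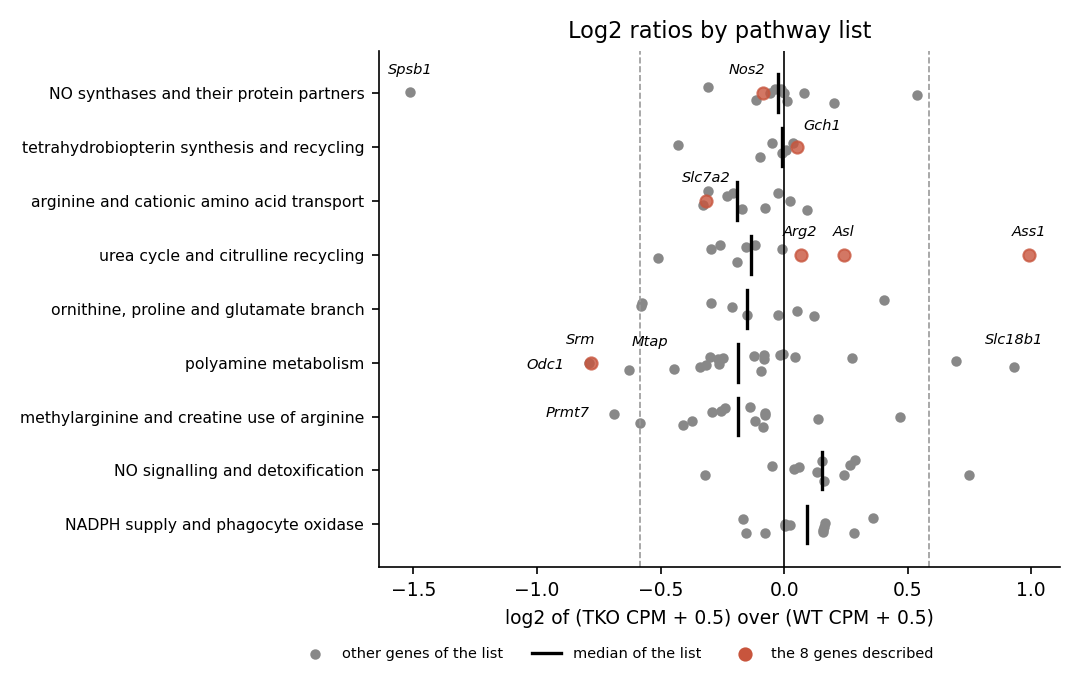
Each of the 9 rows is a pathway list, with 1 point per measured gene at its log2 ratio, a black bar at the list's median, red points for the genes described above and dashed lines at 1.5-fold. Spsb1 lies far left of its list, Odc1 and Srm lie together at the low end of the polyamine list, and Ass1 stands alone at the right of the urea cycle list. Arg1 is not drawn because it was not measured.

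Other uses of arginine and the handling of nitric oxide held few calls. Among 14 measured genes of methylarginine and creatine metabolism, Prmt7, for an arginine methyltransferase, was called lower (85 and 51 counts, 1.68-fold, 1.17 to 2.42) and 0 higher, with a median of −0.19. The dimethylarginine hydrolase genes Ddah1 (8 and 5 counts) and Ddah2 (22 and 20), chosen after their values were seen, had few counts. Of 11 measured genes of nitric oxide signalling and detoxification 0 were called (1 higher with TMM scaling), and the median was 0.15. Its most abundant genes included Akr1a1, for a reductase (1.10-fold higher, 1.06 to 1.13), and Txnrd1, for thioredoxin reductase (1.203-fold higher, 1.17 to 1.24).

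Regulators known to induce Nos2 showed 0 calls in either direction among 21 measured genes, with a median of −0.05. Irf1, a transcription factor of the Nos2 promoter, was 1.04-fold lower (1.00 to 1.07), and Nfkb1 1.12-fold higher (1.09 to 1.15). The interval excluded equality for 7 of the 21 on the higher side and 9 on the lower. Among genes averaging at least 10 CPM these shares were 18.2% and 23.8%. The largest difference of the list, chosen after the values were seen, was that of Irf8 (1.475-fold lower, 1.34 to 1.62). Of 19 measured regulators and markers that accompany Arg1, 3 were called lower and 0 higher, with a median of −0.24. These were Il10 (log2 ratio −1.78), Il4ra (−1.29) and Pparg (−0.81), while Cebpb, a transcription factor that acts on Arg1, was 1.39-fold lower (1.32 to 1.46). With the called genes included, the interval excluded equality for 4 of the 19 on the higher side and 10 on the lower. Over all measured genes these shares were 14.1% and 20.2%. On the higher side was Stat6 (1.12-fold, 1.06 to 1.19), chosen after its values were seen. Among 16 LPS-response genes, all measured, Il12b (log2 ratio 1.43) and Cxcl1 (1.15) were called higher and Ccl4 (−0.91) lower, with a median of −0.19, so cytokine genes too differed in both directions. With the called genes included, the interval excluded equality for 7 of the 16 on the higher side and 9 on the lower.

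The labelled cell type had its markers: all 12 macrophage genes, led by Cd14 and Cd68, were measured, 0 were called, and their summed level was 8104.7 CPM in WT and 8324.0 CPM in TKO. Some other markers differed between the libraries. Of 13 measured fibroblast and stromal markers 8 were called lower and 0 higher. The list summed to 501.7 CPM in WT and 212.7 CPM in TKO, led by Col1a1 and Col1a2. Postn, Col5a1, Col3a1 and Dcn were also at least 2-fold lower. Not all stromal markers were lower: 3 had log2 ratios above 0. These were Pdgfrb (478 and 510 counts), Thy1 (33 and 39) and Lepr (26 and 31), named after their values were seen. Of 14 proliferation genes, 2 were called lower (Aurka and Tk1, named after their values were seen) and 0 higher, with sums of 2632.1 and 2205.9 CPM and a median of −0.42. The stromal and proliferation sums thus lay on the same side as Odc1, and the part of either in the differences of Odc1 or Ass1 was not tested. In such bulk RNA, fewer cells of a type and less RNA per cell cannot be told apart.

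Markers of most other blood cell types were scarce. Summed levels in WT and TKO were 38.1 and 40.0 CPM for 11 neutrophil genes (S100a9 called lower), 11.9 and 9.3 CPM for 5 T and NK cell genes (Lck called lower), and 9.9 and 12.5 CPM for 5 B cell genes. The 5 mast cell, basophil and eosinophil genes summed to 4.1 and 2.7 CPM and 3 erythroid genes to 0.4 and 0.2 CPM. At 0 counts, and named for that after their values were seen, were Ly6g, Clec9a and Ms4a2 in WT and Prtn3, Cd209a, Prg2 and Klf1 in TKO. The 8 dendritic cell genes summed to 38.1 CPM in WT and 199.6 CPM in TKO, mostly Itgax (291 and 2019 counts), which was called higher. The other measured genes of that list were Xcr1 (84 and 90 counts) and Ccr7 (17 and 26). Neither was called, and both are named after their values were seen. The 6 endothelial genes summed to 79.4 and 157.7 CPM, mostly Vwf (468 and 1052 counts) and Kdr (281 and 576), both called higher. Pecam1, an endothelial marker chosen after its values were seen, had 43 and 37 counts. The part of these genes in the results above was not tested.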

How the data were processed

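Per the labels' protocols, polyadenylated RNA of 2 macrophage libraries (1 WT, 1 TKO) was sequenced. HISAT2 2.0.4, Bowtie2 2.2.5, RSEM 1.2.12 and build mm10 come from the submitters' processing notes, which as used here give no roles. The authors deposited estimated counts, which were rounded here. They also deposited FPKM values, used for levels between genes, a log2 ratio of FPKM, a p-value (not used) and an adjusted value, treated as a score because it reaches 1.04. The deposited gene length (other unit) served for CPM per kilobase.

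One entry lacked a symbol and was left out, at 1 count per library. CPM used library totals. Of 16219 entries, 23 symbols turned into dates were restored from gene identifiers with RefSeq (GRCm38.p6, 16179 identifiers matched). Measured genes had a mean of at least 1 CPM. Log2 ratios used 0.5 CPM added. Intervals are conditional binomial (scipy 1.17.1). PCR reads without molecular identifiers are not independent molecules. Nothing tells how many cultures or mice stood behind a library. The ratio script was checked on simulated data.

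Genes named are the 8 members, their direct reaction or binding partners, genes of each pathway list that were called or among the 3 most abundant, and of marker lists the 2 most abundant or those called at 2-fold. Others are said to be chosen after their values were seen. One gene that this rule names is not reported here. No gene was named for likeness of pattern, which 2 libraries cannot measure. Members and lists were chosen with earlier results of these data known. GENCODE release M21 gave positions and 3' UTRs. Promoter sequences were matched by symbol for 3 of the 8 genes and all microRNAs named were matched. Alternatives were TMM scaling (edgeR 4.0.16), DESeq2 1.42.0 size factors, FPKM ratios, unrounded counts, other added values, folds, filters and site lengths.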

Additional observations from a re-analysis of the deposited data

How the results depend on the processing

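No paired analysis was possible because each genotype had 1 library and the labels carry no replicate numbers, and for the same reason no replicate could be left out. Requiring 2-fold in place of 1.5-fold left 0 members called higher and 0 lower with library-total scaling, where Ass1 was 1.99-fold and Odc1 1.72-fold apart, but Ass1 reached 2.06-fold with TMM and 2.04-fold with DESeq2 size factors. With an 8-base site 1 member had a match in place of 3. Each measured member kept its direction under all 6 alternatives of scaling, rounding, added value and FPKM: Ass1 ranged from 0.98 to 1.04 (log2), Odc1 from −0.79 to −0.73, Slc7a2 from −0.31 to −0.27 and Nos2 from −0.08 to −0.04. Arg1, at 10 and 2 counts, ranged from −2.33 to −0.70. TMM moved the median of all measured genes from −0.04 to 0.003, and the calls over all genes from 330 higher and 613 lower to 385 and 527. Without the filter on low values, 1 gene of the urea cycle list (Arg1) was called lower. Among genes averaging 10 CPM or more, the polyamine list had 0 called higher and the methylarginine list 0 lower, and the median of the Odc1 regulators was −0.24. Depth limits Arg1, Nos1, Nos3 and Gchfr, for which differences of the usual size were not detectable.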

Other observations

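Phagocytes also make superoxide, through the NADPH oxidase, and the genes of NADPH supply and of that oxidase leaned the other way from the arginine transport and polyamine lists. Of 12 measured genes 0 were called in either direction, 9 had log2 ratios above 0 and the median was 0.09 (0.14 with TMM scaling). Cybb, for the catalytic subunit, was 1.22-fold higher (1.197 to 1.24), with 28240 (WT) and 34568 (TKO) counts. Ncf1 and Cyba, for other subunits, were 1.28-fold (1.251 to 1.32) and 1.12-fold (1.07 to 1.16) higher. Of all measured genes, 4967 lay above 0 and 6695 below.

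The neighbours of the genes with the clearest differences were read within 250 kb, from RefSeq positions, as a check chosen after the values were seen. Around Ass1, 4 genes were measured and 0 were called higher. The nearest, Fubp3, was 1.15-fold lower (1.02 to 1.30), and Ncs1, 174281 bases away, had 67 and 16 counts, 4.22-fold lower (2.42 to 7.79). Around Odc1, Nol10 was 1.10-fold lower (0.960 to 1.26) and Hpcal1 1.33-fold lower (1.21 to 1.47). Around Slc7a2, 3 genes were measured. The nearest, Pdgfrl, was 1.34-fold lower (0.766 to 2.38) and Mtmr7 1.30-fold lower (1.06 to 1.61), while Mtus1, 68842 bases away, had 228 and 453 counts, 1.97-fold higher (1.68 to 2.32).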
